A study of Mus musculus with 41 samples.

Results

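The cytosolic ribosomal protein genes were followed through a neural differentiation of mouse embryonic stem cells in which 1 of 4 chromatin or nuclear receptor genes had been targeted. The family was taken as every gene symbol made of Rpl, Rps or Rplp, a number and at most 1 letter a, x or y, which gave 75 of the 24410 symbols in the count table. Of these, 29 encode small subunit proteins and 46 encode large subunit proteins, and all 75 passed the filter on low counts. Rpsa and Fau encode ribosomal proteins too, but their symbols fall outside this rule and they are described separately. Members were more abundant than most genes, with a median CPM (counts after TMM scaling of the libraries to the same size) of 196 over the 41 libraries against 20.0 for the 15204 genes tested, and counting error is correspondingly smaller in them.

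All cells were R1-iCas9, a mouse embryonic stem cell line with doxycycline-inducible Cas9, and Cas9 was induced in all groups with 1 µg/ml doxycycline from the day before transfection. All groups were then differentiated towards spinal cord neural progenitors with 10 ng/ml bFGF, the Wnt activator CHIR99021 at 5 µM on day 2, 100 nM retinoic acid from day 3 to 5 and 10 nM Smoothened agonist from day 3. Each knockout received 5 pooled synthetic guides to a single gene, and controls (NT) received a guide with no target. The targeted genes were Eed and Ezh2, which encode parts of Polycomb repressive complex 2, Brd8, whose bromodomain protein belongs to the Tip60 histone acetylation machinery, and the nuclear receptor gene Nr6a1. RNA was sequenced at days 7, 9 and 11 in 3 libraries per group, except for Brd8 at day 9 and Nr6a1 at every day with 2. No isolation of clones is described, so edited and unedited cells may be mixed in each library. Total counts ranged from 8581285 to 38240227 per library. No targeted gene was called lower in the libraries labelled as its knockout by edgeR's quasi-likelihood test (adjusted p = 0.094 to 1 over 11 of 12 comparisons, and Ezh2 was higher at day 11, adjusted p = 0.00736), and counts over a whole gene do not show whether its coding sequence was cut. Neural progenitor markers stood at a summed 2368 CPM in NT at day 7 and 2355 CPM at day 11, with all 9 genes measured, and endothelial and blood markers summed to a mean of 9.57 CPM or less at each day in NT. NT replicate 3 and Eed replicate 3 of day 11 agreed less with their own groups than the other libraries did (highest correlation of log2 CPM 0.940 and 0.945). Nothing in the labels says whether replicates were separate cultures, so p-values measure the spread between these libraries.

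Ribosomal proteins are the protein part of the ribosome and are made in step with ribosomal RNA, since nearly every one is present as a single copy in the mature particle. Their messages belong to the terminal oligopyrimidine class: transcription starts at a C followed by a run of pyrimidines, and translation of such messages is controlled through mTORC1 and the RNA-binding protein Larp1. Proliferating progenitors need many new ribosomes, and free ribosomal proteins that fail to assemble, Rpl5 and Rpl11 above all, can bind Mdm2 and stabilise p53.

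Pyrimidine runs were more frequent at annotated start sites of members than at all annotated starts. RefSeq gave 65 start sites for 55 of the 75 members (GRCm38.p6). In 32 of them (49.2%) a run of 7 or more pyrimidines lay within 15 bases of the annotated start, against 18.6% of all 32851 starts in the same table. A start at C followed by further pyrimidines, at least 4 in all, was found at 20.0% of member starts and at 3.76% of all starts. The 30-base windows below, 15 bases either side of the annotated start and written 5′ to 3′ on the gene's own strand, belong to members whose levels are described further on. Capitals mark the longest pyrimidine run. It spans 10 to 13 bases in Rps18, Rps6, Rpl13a, Rpl38, Rpl35a and Rpl18. It spans 9 bases in Rps26, 7 in Rpl12 and Rps21, and 6 in Rps2. These windows are a selection with mostly long runs. Rps16, Rplp0, Rpl5 and Rpl11, also described further on and not shown, had longest runs of 5, 5, 4 and 3 bases. Other starts of Rpl35a had runs of 4 and 5 bases, and another start of Rps21 had 4.
Rps18 (chr17:33955651-33955680, minus strand): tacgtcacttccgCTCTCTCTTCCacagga
Rps6 (chr4:86857353-86857382, minus strand): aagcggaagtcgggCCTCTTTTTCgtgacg
Rpl13a (chr7:45128731-45128760, minus strand): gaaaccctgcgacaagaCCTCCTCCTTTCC
Rpl38 (chr11:114668565-114668594, plus strand): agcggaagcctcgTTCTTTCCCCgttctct
Rpl35a (chr16:33056467-33056496, plus strand): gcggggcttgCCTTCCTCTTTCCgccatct
Rpl18 (chr7:45718056-45718085, plus strand): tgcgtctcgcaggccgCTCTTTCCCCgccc
Rpl12 (chr2:32961697-32961726, plus strand): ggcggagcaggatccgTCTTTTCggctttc
Rps26 (chr10:128626492-128626521, minus strand): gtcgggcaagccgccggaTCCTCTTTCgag
Rps21 (chr2:180257364-180257393, plus strand): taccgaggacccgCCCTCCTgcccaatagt
Rps2 (chr17:24720048-24720077, plus strand): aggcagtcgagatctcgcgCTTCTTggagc

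In the 250 bases before and 50 after each start, searched on both strands, the ETS core CCGGAAG was found at 35.4% of member starts against 8.86% of all starts. The SP box GGGCGGG was found at 46.2% against 25.6%, the YY1 core AAGATGGC at 10.8% against 2.75%, the E-box CACGTG at 12.3% against 7.15%, and the TATA box TATAAA at 9.23% against 13.6%. The motifs can overlap with one another. The 250 bases before the first start of Rps21, whose level changed least in control cells, hold 2 ETS cores, in capitals.
Rps21 (chr2:180257129-180257378, plus strand): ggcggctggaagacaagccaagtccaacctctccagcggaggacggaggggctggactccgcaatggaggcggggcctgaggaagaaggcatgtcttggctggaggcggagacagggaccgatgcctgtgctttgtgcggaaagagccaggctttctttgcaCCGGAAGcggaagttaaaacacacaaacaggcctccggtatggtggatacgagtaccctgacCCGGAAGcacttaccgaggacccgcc

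Ribosomal protein transcripts took a falling share of all counts as control cells differentiated, and a larger share than in controls in Eed and Brd8 libraries. In NT the family held 1.89 ± 0.060% of counts at day 7, which became 1.51 ± 0.056% by day 9 and 1.35 ± 0.058% by day 11 (SD, n = 3). In Eed libraries it held 2.21 ± 0.135%, 1.92 ± 0.104% and 1.85 ± 0.069% (SD, n = 3) at these days. In Brd8 libraries it held 2.21 ± 0.097% and 1.70 ± 0.059% at days 7 and 11 (SD, n = 3), with 2.01 ± 0.103% between them at day 9 (SD, n = 2). Every Eed and every Brd8 library lay above every NT library of its day. In Ezh2 libraries the share was 2.04 ± 0.126%, 1.65 ± 0.206% and 1.60 ± 0.130% (SD, n = 3), overlapping NT at days 7 and 9 but not at day 11, where the lowest Ezh2 library stood at 1.46% and the highest NT library at 1.41%. At day 9 Ezh2 replicate 3 stood apart at 1.89%, with the other 2 at 1.51% and 1.56%. In Nr6a1 libraries the share was 1.87 ± 0.129%, 1.42 ± 0.058% and 1.38 ± 0.164% (SD, n = 2), and its range overlapped that of NT at each day. The ribosomal RNA gene Rn45s moved as well, from 14.3% of counts in NT at day 7 to 6.52% at day 9 and 5.73% at day 11. With Rn45s left out the NT family share was 2.20%, 1.62% and 1.43%. Rn45s also differed between libraries of the same group, as in Eed at day 9 (4.15%, 8.78% and 7.93%), and the source of this spread was not tested. In the Nr6a1 libraries of day 7 Rn45s took 10.4% and 6.71% of counts. With Rn45s left out, their family shares of 1.99% and 2.11% lay below every NT library of that day (2.14% to 2.28%).

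**Figure D1:**
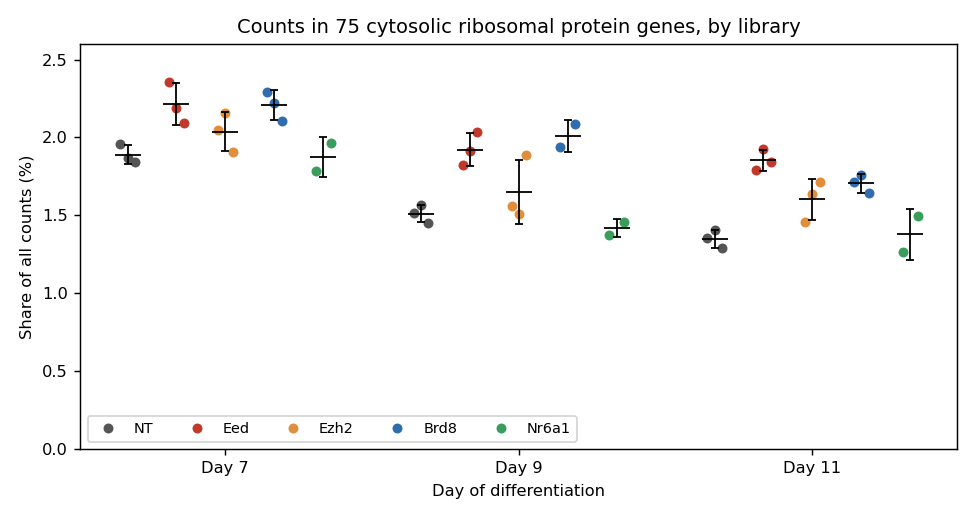
Share of all counts (%, y axis) held by the 75 ribosomal protein genes in each of 41 libraries, by day and genotype; points are libraries, bars the group mean with its SD. NT falls from 1.89% at day 7 to 1.35% at day 11, and Eed and Brd8 libraries lie above NT at each day.

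Summed after TMM scaling, which sets libraries to a common size from the bulk of genes, the family stood at 1.15, 1.26 and 1.36 times the NT level in Eed libraries at days 7, 9 and 11. The ratios were 1.14, 1.32 and 1.25 in Brd8, 1.04, 1.07 and 1.19 in Ezh2, and 0.926, 0.939 and 1.01 in Nr6a1. In bulk RNA, more cells of a type with many ribosomes and more ribosomal protein RNA per cell cannot be told apart. Within the family, levels per kilobase of coding sequence differed widely. In NT at day 7 the median was 469 CPM per kilobase and the middle 50% of members lay between 321 and 628. Rpl41, which has a coding sequence of 75 bases, stood highest at 4306 CPM per kilobase, and Rps2 stood at 2025. Counts were per gene and only coding bases were used as length, so a very short coding sequence can raise this value. Before division by length Rpl41 stood at 323 CPM and Rps2 at 1780 CPM in NT at day 7. Rps27 and Rpl30 stood lowest at 5.04 and 5.12, and both share nearly all their counts with near-identical rows, described last.

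Between day 7 and day 11 of control differentiation the family fell together. Of 75 members, 65 fell and 0 rose (adjusted p under 0.05, edgeR's quasi-likelihood test over all 15204 genes), where 23.3% of all genes tested fell and 21.9% rose. The 65 include Rps27, whose row had 3 counts in all over the NT libraries of day 11, so no fold is given for it, and it did not pass without NT replicate 2 of day 7 or without NT replicate 1 or 3 of day 11. The median member changed by -0.61 on the log2 scale, against -0.002 for all genes tested. In 66 members every day 11 library lay below every day 7 library, a pattern found in 26.4% of all genes. Most of the fall came early: 56 members fell from day 7 to day 9 (13.3% of all genes did) with a median of -0.43, and 20 fell from day 9 to day 11 (12.9% of all genes did) with a median of -0.19. No member rose in either step (14.5% and 10.6% of all genes did). DESeq2 called 55 and 17 members lower in these steps and none higher. These comparisons share NT libraries. With libraries scaled by total counts alone, 56, 32 and 12 members fell from day 7 to 11, 7 to 9 and 9 to 11, and the median of all genes tested then moved by 0.16, 0.12 and 0.02. The count for day 9 to 11 was 13 without NT replicate 2 of day 9 and 11 without NT replicate 3 of day 11.

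**Figure D2:**
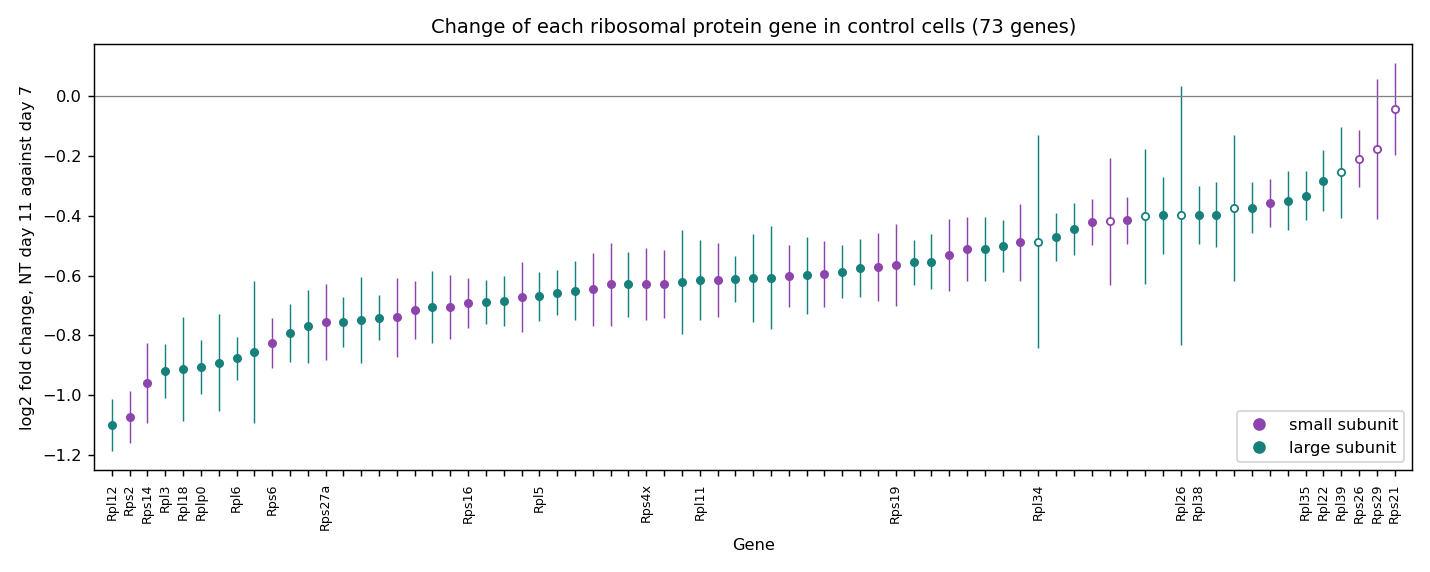
Log2 fold change (y axis) of ribosomal protein genes in NT from day 7 to day 11, with the SE of edgeR's model, ordered by size along the x axis, where a selection of genes is named; filled points passed the test, colours give the subunit. Rps27 and Rpl30, with few counts, are not drawn; the fall spans -1.10 for Rpl12 to -0.04 for Rps21.

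Apart from Rps27, the deepest falls were in Rpl12 and Rps2. Rpl12, a protein of the stalk base where translation factors dock, stood at 398, 404 and 341 CPM in the NT libraries of day 7, at 227, 222 and 213 at day 9, and at 184, 176 and 174 at day 11. The 3 days did not overlap, and the fall from day 7 to 11 was 2.14-fold (log2 change -1.10 ± 0.09 SE, adjusted p = 2.84e-13). Rps2, which lies near the entry of the mRNA channel, stood at 1927, 1782 and 1632 CPM at day 7, 926, 1023 and 904 at day 9, and 760, 895 and 887 at day 11. Its 3 days did not overlap either. The Rps2 row held fractional counts in all 41 libraries, so some of its reads may be shared with other rows; no near-identical coding sequence was found for it, and the part of such sharing was not tested. The step from day 7 to 9 passed the test (log2 change -0.90 ± 0.09 SE, adjusted p = 1.99e-10), and the step from day 9 to 11 did not (log2 change -0.17 ± 0.09 SE, adjusted p = 0.162). Rpl18 fell by 1.74-fold from day 7 to 9 (adjusted p = 0.000456), with 98.5, 95.7 and 100.0 CPM at day 7 against 54.5, 61.0 and 53.7 at day 9. From day 9 to 11 the steepest called members were Rps16, Rpl10 and Rpl6, which fell by 0.40, 0.40 and 0.38 on the log2 scale (adjusted p = 0.000417, 0.000154 and 0.000109).

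At the other end, 10 members did not pass the test from day 7 to 11: Rpl26, Rpl30, Rpl34, Rpl37, Rpl39, Rplp1, Rps21, Rps26, Rps28 and Rps29. Rps21, a small protein of the small subunit, stood at 46.0, 37.3 and 46.5 CPM at day 7 and at 37.3, 46.1 and 42.8 at day 11. These ranges coincided (log2 change -0.04 ± 0.15 SE, adjusted p = 0.844). Rps26, which contacts the mRNA upstream of the start codon at the exit channel, stood at 220, 202 and 205 CPM at day 7 and at 179, 200 and 164 at day 11 (log2 change -0.21 ± 0.10 SE, adjusted p = 0.0725). Its libraries did not overlap between the days, but the difference did not pass the test. Missing the threshold does not show that these members kept their level.

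Whether members departed from the family was tested with libraries scaled so that the median member had no change. On that scale 8 members rose and 8 fell from day 7 to 11 in NT, where 51.6% of all genes rose and 6.13% fell. The steepest relative falls were in Rpl12, Rps2 and Rps14, by 0.48, 0.45 and 0.34 on the log2 scale (adjusted p = 0.000128, 0.000124 and 0.0146). Rpl18, Rpl3, Rplp0, Rpl6 and Rps6 made up the rest of the 8. The steepest relative rises were in Rps21 (0.58 ± 0.13 SE, adjusted p = 0.000328), Rps26 (0.41 ± 0.09 SE, adjusted p = 0.000364) and Rpl39 (0.36 ± 0.13 SE, adjusted p = 0.0164), followed by Rpl22, Rpl35, Rpl17, Rps13 and Rpl23a. From day 7 to 9 there were 7 relative rises, led by Rps26, Rpl35 and Rpl27, and 7 relative falls, led by Rps2, Rpl18 and Rpl12 (39.7% and 2.61% of all genes). From day 9 to 11 edgeR's test called 0 members on this scale (18.3% of all genes). With no filter on low counts the relative calls numbered 9 from day 7 to 11, 8 from day 7 to 9 and 3 from day 9 to 11. Over the 15 groups the relative level of Rpl28 had an SD of 0.04 on the log2 scale, among the lowest. It varied most in Rpl30, Rps27 and Rpl26, whose counts are divided with near-identical rows, followed by Rps2 with an SD of 0.26.

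Groups of members with a shared role are described by their counts, beside 65 of 75 that fell in the whole family and 23.3% of all genes. Of the 4 stalk proteins, Rplp0, Rplp1, Rplp2 and Rpl12, which recruit elongation factors, 3 fell from day 7 to 11 in NT, with a median of -0.90. Rplp0, the stalk's anchor, went from 755, 698 and 611 CPM to 401, 357 and 346 (adjusted p = 8.8e-11). Rpl5, Rpl11 and Rpl23, which can bind Mdm2, all fell, with a median of -0.62. Rpl5 went from 479, 464 and 438 CPM to 310, 275 and 283 (adjusted p = 9.78e-09), and Rpl11 from 115, 110 and 109 to 75.3, 85.7 and 57.2 (adjusted p = 0.000221). Of 16 members mutated in Diamond-Blackfan anaemia, an inherited failure of red cell production, 12 fell with a median of -0.53; Rps19, the first gene found in it, changed by -0.56 ± 0.14 SE (adjusted p = 0.00086). Of 10 proteins around the peptide exit, 7 fell with a median of -0.39. Rpl38, required for translation of Hox messages in the mouse, stood at 123, 115 and 116 CPM at day 7 and 80.2, 105 and 84.6 at day 11 (log2 change -0.40 ± 0.10 SE, adjusted p = 0.00088), and did not pass when libraries were scaled by total counts (adjusted p = 0.0646). Rps6, the substrate of S6 kinase, fell 1.77-fold (adjusted p = 1.05e-10). Rps27a, made as a fusion with ubiquitin, fell 1.69-fold (adjusted p = 4.26e-06), and the X-linked Rps4x 1.55-fold (adjusted p = 3.29e-05).

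In Eed libraries the family was higher than in NT at each day, and more members were called as the days went on. Members whose Eed libraries all lay above every NT library did not increase in the same way. They numbered 50, 66 and 49 at days 7, 9 and 11, and the share of all genes with this pattern is not given here. At day 7, 9 members rose and 0 fell (2.9% and 5.76% of all genes tested), with a median of 0.21. At day 9, 35 rose and 0 fell (2.99% and 2.16% of all genes), with a median of 0.33. At day 11, 57 rose and 0 fell (13.3% and 10.6% of all genes), with a median of 0.41. At day 11 the called members, 57 of 75 in all, were 25 of 29 of the small and 32 of 46 of the large subunit. They included 2 of the 4 stalk proteins, 2 of the 3 that bind Mdm2, 11 of the 16 mutated in Diamond-Blackfan anaemia and 7 of the 10 around the peptide exit. The 57 include Rps27, which had 3 counts in all over the NT libraries of that day and for which no fold is given. The count at day 11 was 42 to 63 with any 1 library left out, lowest without NT replicate 3, and 40 without both low-agreement libraries. The counts at the earlier days leaned on single libraries while their medians held: at day 7 the count fell to 0 without Eed replicate 1 and to 4 without Eed replicate 2, and it was 2 and 0 without the second and the third NT library, while the median stayed between 0.19 and 0.24. At day 9 it fell to 10 without Eed replicate 2 and to 4 without Eed replicate 3, and it was 11 and 5 without the first and the third NT library, while the median stayed between 0.30 and 0.38.

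At day 11 Rps6 stood at 387, 390 and 387 CPM in Eed libraries and at 268, 246 and 259 in NT, without overlap (1.51-fold, log2 change 0.59 ± 0.08 SE, adjusted p = 1.07e-06). The Eed libraries at day 11 lay between the NT levels of days 7 and 9 for Rps6, whose NT values at day 9 were 331, 357 and 316. Rps16 stood at 187, 217 and 177 CPM against 134, 138 and 110 (1.52-fold, adjusted p = 9.47e-07). Rpl13a, also known for a role in silencing inflammatory messages, stood at 183, 207 and 188 CPM against 136, 145 and 98.1 (1.52-fold, adjusted p = 0.000209). Rpl36a had the largest called fold apart from Rps27, 1.76-fold, from 10.8, 10.6 and 7.45 CPM to 17.7, 17.5 and 15.6 (adjusted p = 0.00962), and did not pass without NT replicate 3 (adjusted p up to 0.086 over the alternatives). Rps21 was again apart: it stood at 40.1, 46.2 and 29.5 CPM in Eed libraries and overlapped NT (log2 change -0.12 ± 0.15 SE, adjusted p = 0.639). Relative to the family Rps21 fell by 0.55 ± 0.13 SE (adjusted p = 0.000969) and Rps27 was the other call (0 calls without the 2 low-agreement libraries), where 5.8% of all genes rose and 39.5% fell.

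At day 9 the called members with the largest folds were Rps18, Rpl18 and Rps14, at 1.51-, 1.49- and 1.48-fold. Rps18 stood at 108, 121 and 102 CPM in Eed libraries and at 77.4, 73.9 and 68.0 in NT (adjusted p = 0.00445, and 0.0504 without NT replicate 3). Rpl18 (adjusted p = 0.0409) did not pass in 5 of 6 fits without 1 library, the exception being that without Eed replicate 1, and Rps14 (adjusted p = 0.00945) did not pass without Eed replicate 2 or NT replicate 3. At day 7 they were Rps26, Rps16 and Rpl10a, at 1.26-, 1.26- and 1.23-fold (adjusted p = 0.0236, 0.00874 and 0.0176). None of these 3 passed without Eed replicate 1 or without NT replicate 3, and Rps26 also failed without Eed replicate 3 or NT replicate 2. There were 7 members called higher at all 3 days: Rpl10a, Rpl5, Rps16, Rps2 and Rps6, and also Rpl4 and Rps25, which were chosen after their values were seen because they complete this set. Without Eed replicate 1 or 2, or without the second or the third NT library of day 7, Rpl5 and Rps6 did not pass at that day. Without Eed replicate 1 the count at day 7 was 0, so none of the 7 members held in that fit. The share of all genes called higher at all 3 days is not given here.

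**Figure D3:**
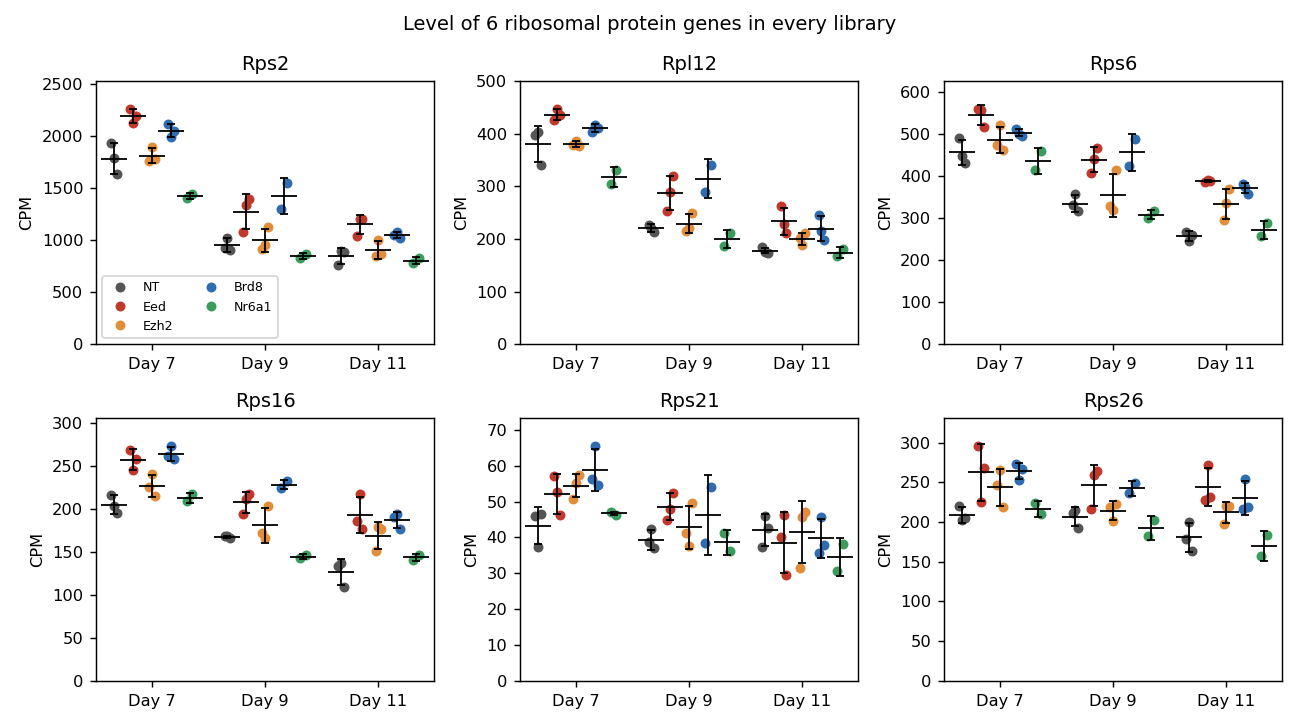
CPM (y axis, from 0) of Rps2, Rpl12, Rps6, Rps16, Rps21 and Rps26 in every library by day and genotype; points are libraries, bars the mean with its SD. Rps2 in NT goes from 1632 to 1927 CPM at day 7 to 760 to 895 at day 11, and Rps21 stays between 37.0 and 46.5 in NT over all days.

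Markers of other cells moved with genotype. Epithelial markers (Krt8, Krt18 and 4 others) summed to 145 to 295 CPM in Eed libraries at day 11 and to 12.9 to 21.1 in NT, and neural crest markers (Foxd3, Tfap2a and Tfap2b) to 155 to 184 against 22.2 to 30.4. The 13 proliferation genes summed to 1733 to 1999 CPM in Eed libraries at day 11 against 868 to 921 in NT, and neural progenitor markers to 1749 to 1911 against 2312 to 2432. In NT the proliferation sum fell from 2861 to 3047 at day 7 to 868 to 921 at day 11. Glial markers rose in sum from 285 to 327 CPM to 1407 to 1494 over these days in NT. At day 11 glial markers summed to 773 to 923 CPM in Eed, 969 to 990 in Brd8, 1028 to 1120 in Ezh2 and 1506 to 1628 in Nr6a1. Neural progenitor markers at day 11 summed to 1957 to 2090 CPM in Brd8, 1972 to 2195 in Ezh2 and 1974 to 2090 in Nr6a1, below NT as in Eed. Neuron markers summed to 1949 to 2001 CPM in NT at day 7 and to 2715 to 2870 at day 11. At day 7 their sums were 1251 to 1511 in Eed, 1323 to 1558 in Brd8, 1629 to 1823 in Ezh2 and 2253 to 2434 in Nr6a1. At day 11 these were 2332 to 2389 in Eed, 2482 to 2656 in Brd8, 2770 to 2973 in Ezh2 and 2690 to 2808 in Nr6a1. The part of these cell populations in the family's changes was not tested.

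In Brd8 libraries the family was also higher than in NT. These comparisons use the same NT libraries as those of Eed, so the values stand side by side and likeness between them is not tested. At day 7, 8 members rose and 0 fell (1.3% and 3.45% of all genes tested), with a median of 0.21. At day 9, 42 rose and 0 fell (7.72% and 7.81% of all genes), with a median of 0.36. At day 11, 38 rose and 0 fell (10.3% and 7.48% of all genes), with a median of 0.30. At day 7 the count was 1 without Brd8 replicate 1 and 3 without Brd8 replicate 2, and it was 1 without either the second or the third NT library. At day 9 it was 12 without Brd8 replicate 2 and 25 without NT replicate 3, and at day 11 it was 22 without NT replicate 3. The medians stayed between 0.18 and 0.24, 0.31 and 0.41, and 0.26 and 0.36 in those fits. Neural crest markers summed to 134 to 207 CPM at day 11 and proliferation genes to 1559 to 1938, while epithelial markers, at 5.62 to 28.3, spanned the range of NT.

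The largest called folds at day 9 were in Rps19, Rplp0 and Rps2. Rps19 stood at 164 and 170 CPM against 97.9, 116 and 96.3 in NT (1.61-fold, log2 change 0.69 ± 0.15 SE, adjusted p = 0.0013). Rplp0 stood at 599 and 684 CPM against 418, 441 and 412 (1.51-fold, adjusted p = 4.68e-05), and Rps2 at 1301 and 1542 against 926, 1023 and 904 (1.49-fold, adjusted p = 3.86e-05). None of the 3 overlapped NT. At day 11 Rps16 stood at 191, 195 and 177 CPM against 134, 138 and 110 (1.48-fold, adjusted p = 4.58e-06). Rpl35a stood at 71.2, 76.7 and 79.8 CPM against 50.1, 55.3 and 50.7 (1.46-fold, adjusted p = 0.000299). Rps6 stood at 381, 374 and 358 CPM against 268, 246 and 259 (1.44-fold, adjusted p = 1.08e-05). Relative to the family Rps27 (with its 3 counts in NT), Rps16 and Rps6 rose and Rps21 fell at day 11 (4.45% and 24.9% of all genes), and 1 of the 4 calls was left without the low-agreement libraries. Rps21 itself stood at 35.6, 45.8 and 37.8 CPM, overlapping NT (log2 change -0.08 ± 0.15 SE, adjusted p = 0.793). At day 7 the largest called folds were in Rps18, Rps16 and Rpl35a, at 1.36-, 1.29- and 1.29-fold (adjusted p = 0.0339, 0.00617 and 0.0375). Rps18 and Rpl35a did not pass without either of the first 2 Brd8 libraries or either of the last 2 NT libraries, and Rps16 did not without NT replicate 3 (adjusted p = 0.0521). Rpl10a, Rpl35a, Rps13, Rps16 and Rps25, of which Rps25 was chosen after its values were seen, were called higher at all 3 days. Without Brd8 replicate 1 the count at day 7 was 1, so this set did not hold in that fit. The share of all genes called in the same way is not given here.

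In Ezh2 libraries edgeR's test called 0 members at days 7 and 9 (0.151% and 0% of all genes were called), with 9 and 6 members at an unadjusted p under 0.05, and DESeq2 called 0 as well. The share of all genes at an unadjusted p under 0.05 is not given here, so these 9 and 6 are not read as a result. The medians at days 7 and 9 were 0.08 and 0.12. At day 11, 21 rose and 0 fell (5.22% and 2.7% of all genes), with a median of 0.29. The count was 33, 5 or 4 without Ezh2 replicate 1, Ezh2 replicate 3 or NT replicate 3, and 6 when only the 2 groups were fitted. The proliferation genes summed to 1370 to 1596 CPM in these libraries, and neural crest markers to 69.2 to 117 against 22.2 to 30.4 in NT. Rpl35a stood at 69.7, 76.3 and 74.4 CPM against 50.1, 55.3 and 50.7 in NT, without overlap (1.41-fold, log2 change 0.50 ± 0.11 SE, adjusted p = 0.00195), and passed in every alternative. Rpl36a at 13.9, 14.5 and 23.0 CPM (1.78-fold, adjusted p = 0.0203) and Rpl13a at 148, 178 and 212 CPM (1.42-fold, adjusted p = 0.00502) passed neither without Ezh2 replicate 3 nor without NT replicate 3. Rps2, at 849, 1003 and 863 CPM, overlapped NT (log2 change 0.10 ± 0.09 SE, adjusted p = 0.584). Eed and Ezh2 libraries were not tested against each other here.

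In Nr6a1 libraries edgeR's test called 0 members at each day (0.145%, 0.151% and 0.0789% of all genes were called), with 6, 1 and 4 at an unadjusted p under 0.05, and DESeq2 called 0. The unadjusted counts have no share of all genes beside them and are not read as a result. The medians were -0.07, -0.08 and 0.03, and the first became 0.03 when libraries were scaled by total counts, under which the median of all genes moved by 0.09. The day 11 median was -0.12 without Nr6a1 replicate 3 and -0.04 without NT replicate 3. At day 7, 24 members lay below every NT library (13.6% of all genes did). Rps2 was among them, at 1400 and 1442 CPM against 1927, 1782 and 1632 in NT (log2 change -0.33 ± 0.10 SE, adjusted p = 0.216 and unadjusted p = 0.00165 by edgeR). Rpl12 stood at 304 and 332 CPM there against 398, 404 and 341 (adjusted p = 0.453). That these members did not pass does not show that the levels were alike.

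**Figure D4:**
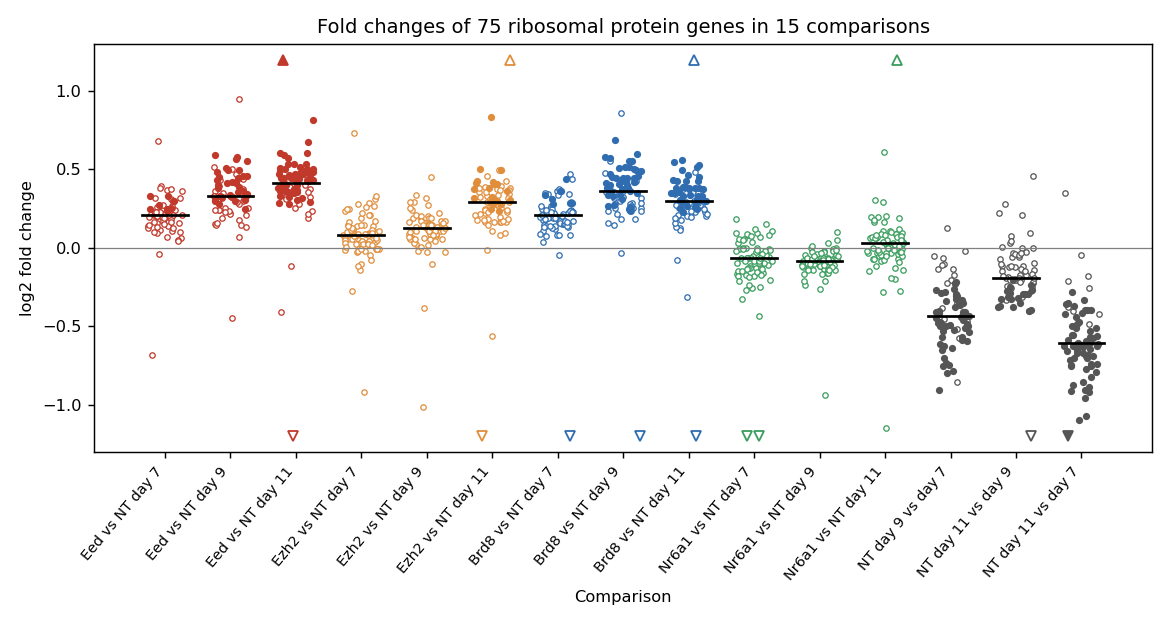
Log2 fold change (y axis) of each of the 75 genes in 15 comparisons (x axis); filled points passed edgeR's test, black lines are medians, and triangles at the edge mark values beyond the axis. Medians are 0.41 in Eed and 0.30 in Brd8 at day 11 and -0.61 in NT from day 7 to 11.

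Whether an effect differed between days was tested as day 11 against day 7. For Eed, 3 members passed and all were larger at day 11 (4.01% of all genes passed in that direction), with a median difference of 0.20 over the family. Rpl6 and Rpl9, both of the large subunit, were among them, with differences of 0.38 ± 0.10 SE and 0.39 ± 0.11 SE on the log2 scale (adjusted p = 0.016 and 0.0188). Rpl6 stood at 772.5, 792 and 736 CPM in Eed libraries of day 7, overlapping NT at 763, 701 and 664.5. At day 11 it stood at 540.1, 554.5 and 537 CPM against 398, 403 and 359, without overlap. The count was 1 without NT replicate 3 of day 11 and 5 without NT replicate 2 of day 11. For Brd8, Rps6 passed (0.39 ± 0.12 SE, adjusted p = 0.045; 2.98% of all genes), but it did not pass under 13 of 20 alternatives, including 10 of the 12 that left out 1 library (those without NT replicate 3 of day 7 and NT replicate 1 of day 11 being the exceptions). For Ezh2 and Nr6a1 edgeR's test called 0 members (1.41% and 0.112% of all genes), with 11 and 3 at an unadjusted p under 0.05 and 0 by DESeq2. No share of all genes is given for the unadjusted counts, which are not read as a result.

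Genes around the family are given by their counts, to be read against all genes tested: 23.3% fell and 21.9% rose in NT from day 7 to 11, 13.3% rose in Eed at day 11, and 7.72% and 10.3% rose in Brd8 at days 9 and 11. Rpsa and Fau, ribosomal protein genes outside the symbol rule, both fell in NT from day 7 to 11 and both rose in Eed at day 11 and in Brd8 at days 9 and 11. Rpsa, which doubles as the laminin receptor precursor, changed by -0.88 ± 0.08 SE (adjusted p = 2.2e-11) in NT and by 0.47 ± 0.08 SE (adjusted p = 3.38e-05) in Eed at day 11. Of 41 ribosome biogenesis genes 38 fell and 0 rose in NT from day 7 to 11, with a median of -0.73. The nucleolar chaperone Npm1 changed by -1.13 ± 0.10 SE (adjusted p = 4.06e-12) and the rRNA helicase Ddx21 by -1.03 ± 0.09 SE (adjusted p = 2.98e-12). In Eed at day 11, 7 of the 41 rose and 2 fell, with a median of 0.13, beside 57 of 75 and 0.41 for ribosomal proteins. The share of the 41 that rose was not far above the 13.3% of all genes. Npm1 and Fbl, the methyltransferase of box C/D particles, rose by 0.58 and 0.54 (adjusted p = 2.66e-05 and 0.000415), and Bysl, a small subunit assembly factor, fell by 0.50 (adjusted p = 0.00277). At day 9 in Brd8 12 of the 41 rose. At day 11 in Brd8 4 of the 41 rose, a share near that of all genes. Of 77 mitochondrial ribosomal protein genes 20 fell and 1 rose in NT from day 7 to 11, with a median of -0.21, and 6 rose in Eed at day 11, with a median of 0.05. The share that fell is near that of all genes, and the share that rose in Eed is not above it.

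Of 18 translation factors whose messages belong to the same pyrimidine-start class, 12 fell and 1 rose in NT from day 7 to 11 (median -0.47), and 10 rose in Eed at day 11 (median 0.27), 9 in Brd8 at day 9 and 8 in Brd8 at day 11. Over all genes, 23.3% fell and 21.9% rose in NT and 13.3% rose in Eed at day 11. In Brd8 7.72% rose at day 9 and 10.3% at day 11. Eif4b, the cofactor of the eIF4A helicase, fell by 0.76 in NT (adjusted p = 2.67e-10) and rose by 0.61 in Eed at day 11 (adjusted p = 3e-07). Of 18 RNA polymerase I genes 10 fell in NT, Polr1a by 0.88 (adjusted p = 1.85e-10), and 1 rose in Eed at day 11. Of 7 snoRNA host genes 3 fell in NT and 1 rose in Eed. In Eed the share of snoRNA host genes that rose was near that of all genes, and the share of polymerase I genes was below it. Gas5 fell by 1.05 in NT (adjusted p = 2.03e-07). Of 14 genes of mTORC1 and Larp1 5 fell in NT and 0 rose, among them Larp1 by 0.32 (adjusted p = 0.000172) and the translation repressor Eif4ebp1 by 1.85 (adjusted p = 7.53e-08). Eif4ebp1 rose by 1.40 in Eed (adjusted p = 4.52e-05) and by 1.32 in Brd8 (adjusted p = 0.000151) at day 11. In the Myc network Mycn fell by 1.08 (adjusted p = 8.37e-10) and Myc rose by 0.98 (adjusted p = 2.98e-05) in NT, in a list where 4 of 11 rose and 3 fell. The share of this list that fell was near the 23.3% of all genes that did, and 21.9% of all genes rose. At day 11 Mycn rose by 0.99 in Eed (adjusted p = 5.03e-08), 0.80 in Brd8 (adjusted p = 3.99e-06) and 0.53 in Ezh2 (adjusted p = 0.00273).

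The median changes of the proliferation genes were larger than those of the family: 13 of 13 fell in NT from day 7 to 11 with a median of -1.65, and 12 rose in Eed, 12 in Brd8 and 11 in Ezh2 at day 11 with medians of 0.99, 0.81 and 0.78, where 13.3%, 10.3% and 5.22% of all genes rose. Of 12 p53 target genes 10 fell and 1 rose in NT, and 8 rose in Eed and 4 in Brd8 at day 11, where 23.3% of all genes fell in NT. Cdkn1a, which encodes the cell cycle inhibitor p21, changed by -1.63 ± 0.13 SE (adjusted p = 2.6e-13) in NT, 1.58 ± 0.13 SE (adjusted p = 3.28e-11) in Eed and 1.22 ± 0.13 SE (adjusted p = 7.58e-09) in Brd8. In Nr6a1 0 of the 13 proliferation genes and 0 of the 12 p53 targets passed edgeR's test at any day.

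In 4 members most counts stood in another row of nearly the same sequence. The coding sequences of 14 members matched another row of the table over at least 80% of their length at 95% identity or more, and how the reads were divided is not given in the sources used here. Rps27 held 0.736% of the counts it shares with Rps27rt, whose coding sequence is identical. Rpl30 held 3.08% of those shared with Gm12191, Rpl26 7.8% of those shared with Gm15772, and Rpl34 24.9% of those shared with Rpl34-ps1. Rpl21 and Rps15a held 85.5% and 88.3% and Rplp2 96.6%; the rest held 99.6% or more. Alone, Rpl26 stood at 15.3, 14.01 and 41.4 CPM in NT at day 11, and its libraries overlapped those of day 7. Summed with its copy, it went from 311 ± 40.9 CPM in NT at day 7 to 213 ± 13.4 at day 11, and stood at 301 ± 5.49 in Eed at day 11 (SD, n = 3). Rps27 with its copy went from 132 ± 12.6 to 108 ± 8.91 CPM and stood at 127 ± 25.3 in Eed. Rpl30 with its copy went from 42.5 ± 2.92 to 32.9 ± 5.82 and stood at 43.1 ± 4.87. Rpl34 with its copy went from 78.6 ± 0.887 to 73.6 ± 13.7 and stood at 96.3 ± 19.2. The sums were not tested. For these 4 members the values of the single row say little about the gene, and for Rpl30, Rpl26 and Rpl34 the single row was among the 10 that did not pass in NT, while that of Rps27 was among the 65 that did.

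**Figure D5:**
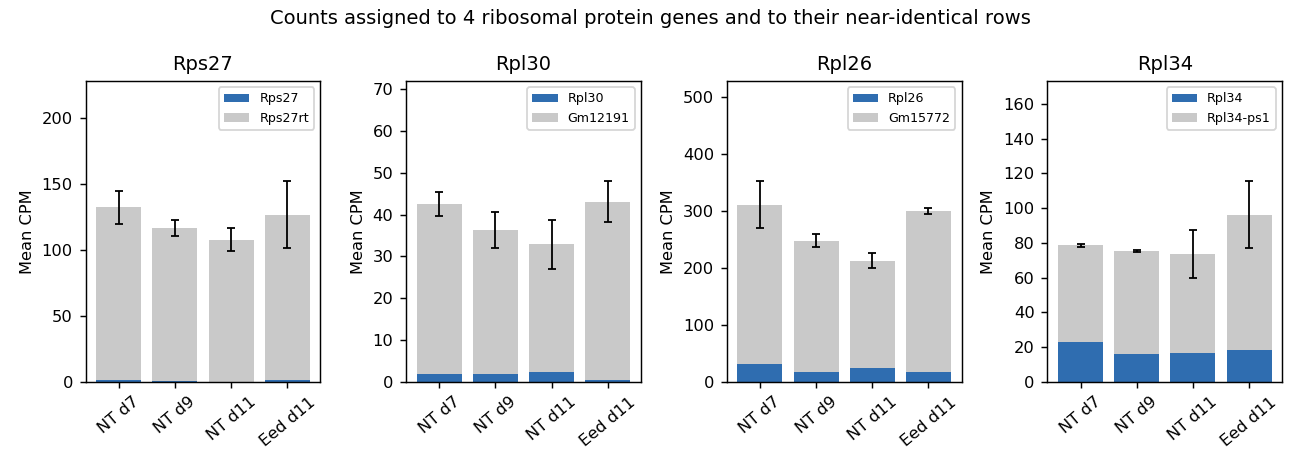
Mean CPM (y axis, from 0) assigned to Rps27, Rpl30, Rpl26 and Rpl34 (blue) and to their near-identical rows (grey) in NT at 3 days and Eed at day 11; black bars are the SD of the sum over 3 libraries. The member's own row holds 0.736% to 24.9% of the shared counts over all libraries.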

How the data were processed

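The authors deposited a table of estimated counts per gene symbol and library, before normalization. Genome build mm10 and DESeq2 are listed, per the submitters' processing notes; aligner, quantifier and gene models: not given in the sources used here. Counts were rounded (18 of the 75 members had fractions in at least 1 library) and analysed in R 4.3.3 with edgeR 4.0.16: filterByExpr by group (15204 genes tested, 9206 not), TMM scaling, and 1 quasi-likelihood model of 15 group means over 41 libraries. Each knockout was tested against NT of its day, NT between days, and each effect at day 11 against day 7. P-values are two-sided, with Benjamini-Hochberg adjustment over all genes of a comparison and a threshold of 0.05. CPM are TMM-scaled. A second fit scaled libraries to the median member. The procedure was tested on simulated data.

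Members and gene lists were chosen with earlier results of these data known. Members are named by rule: up to 3 highest and 3 lowest called, non-overlapping members per comparison on either scale, 10 role genes, and the 5 most and 3 least variable relative levels; of other lists, up to 3 genes with the smallest adjusted p. Members completing a short set are named beside them. Some genes that the rule picks are not reported here. Start sequences come from RefSeq (GRCm38.p6), 20 members having none; coding lengths and copies from GENCODE M21, the copies found with BLAST+ 2.17.0. Alternatives were DESeq2 1.42.0, its size factors, total counts, no filter, only the groups compared, a replicate block, no Rn45s, and left-out libraries. Depth was 8581285 to 38240227 counts per library.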

Additional observations from a re-analysis of the deposited data

Results flagged for a closer look

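In 3 members reported here the effect of a knockout differed between days 11 and 7 by edgeR's quasi-likelihood test of the difference itself. For Eed against NT, the log2 fold change at day 11 exceeded that at day 7 by 0.38 in Rpl6 and by 0.39 in Rpl9. For Brd8 against NT it did so by 0.39 in Rps6, which did not pass under 13 of 20 alternatives, 10 of them fits without 1 library.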

How the results depend on the processing

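No called result changed direction. In Nr6a1, with no member called, the family median changed sign: from -0.07 to 0.03 at day 7 with total counts, from 0.03 at day 11 to -0.12 without Nr6a1 replicate 3 and to -0.04 both with the low-agreement libraries left out and without NT replicate 3, and from 0.12 to -0.04 for the effect between days without Nr6a1 replicate 3 of day 11. Without 1 library, members called numbered 0 to 11, 4 to 40 and 42 to 63 for Eed at days 7, 9 and 11, 4 to 33 for Ezh2 at day 11, 1 to 7, 12 to 37 and 22 to 40 for Brd8, 48 to 51, 11 to 21 and 62 to 69 for NT day 9 against 7, 11 against 9 and 11 against 7, 1 to 5 for the Eed, 0 to 1 for the Ezh2 and 0 to 1 for the Brd8 effect between days; 39 of 73 calls of single named genes held in every alternative. For Eed at day 7 (9 calls) there were 14 with DESeq2's size factors, 18 with DESeq2, 16 with no filter and 26 with only the groups compared; for Brd8 at day 7 (8 calls) 14 with DESeq2, 14 with no filter and 23 with only the groups compared. For Ezh2 at day 11 (21 calls) there were 41 with no filter, 6 when fitting only the groups compared and 4 without the low-agreement libraries, and at day 7 1 with only the groups compared. For Brd8 at day 11 (38) and NT day 11 against 9 (20) there were 22 and 11 without the low-agreement libraries. Total counts gave 32 for NT day 9 against 7 and 12 for day 11 against 9. For Nr6a1 there were 2 (day 7) and 1 (day 11) with no filter and 1 (day 7) with only the groups compared. The Eed effect between days (3) had 5 with DESeq2, 7 with no filter, 5 with the replicate block and 1 without the low-agreement libraries; the Brd8 effect (1) had 0 with DESeq2's size factors, 0 with total counts, 2 with no filter and 2 with only the groups compared; the Ezh2 and Nr6a1 effects had 4 and 1 with no filter. Relative to the family, no filter gave 1 for Eed at day 9, 4 at day 11, 2 for Ezh2 and 1 for Nr6a1 at day 11, and 8, 3 and 9 for NT day 9 against 7, 11 against 9 and 11 against 7; leaving out the low-agreement libraries gave 0 for Eed and 1 for Brd8 at day 11. Without Rn45s the family share was 2.20%, 1.62% and 1.43% in NT, 2.59%, 2.07% and 2.00% in Eed and 2.56%, 2.18% and 1.82% in Brd8 at the 3 days, 2.33% in Ezh2 at day 7, and 2.05% and 1.51% in Nr6a1 at days 7 and 9. The causes of these shifts were not tested. Same-numbered libraries did not deviate together (correlation -0.115 to 0.104; 1 of 74 pairs over 0.1), so the replicate numbers were not taken as a pairing; the replicate block gave 5 calls for the Eed effect, 1 relative call for Eed at day 11 and 1 for Brd8 at day 9. Few counts limit the rows of Rps27 and Rpl30, at 0 in 5 and 7 libraries, where most of the shared counts stood in near-identical rows.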
